A study of Mus musculus with 2 samples.

Results

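Notch1, Notch2 and Notch3 encode receptors of the Notch pathway, and Hes1, Hes5, Hes6 and Hey1 encode basic helix-loop-helix factors that act in or around its nuclear response. These 7 genes were taken by their symbols from the 31053 genes of the feature table, where each symbol stood once. They were followed through the cell classes of the embryonic mouse eye cup, with clusters of shallow cells left aside. The libraries came from e15.5 embryos, with 1 10x Genomics 3′ library per genotype, each made from 3 pooled eye cups from which cornea, lens and optic nerve had been removed. The control was Myrf fl/fl, with loxP sites in both copies of Myrf and no Cre. Mutant embryos were Rx>cre Myrf fl/fl, where an Rx regulatory sequence expresses Cre recombinase from the early eye field stage, so that both groups carried floxed Myrf and cells that never expressed Rx kept it. The study asked what loss of the transcription factor MYRF does to the retinal pigment epithelium and its neighbours, and the values below ask where the 7 Notch genes were detected and whether they differed between the genotypes.

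A ligand on one cell causes the Notch receptor on its neighbour to be cut, and the freed intracellular part enters the nucleus and joins the DNA-binding protein RBPJ. The complex switches on Hes1, Hes5 and Hey1, which encode repressors of proneural genes such as Atoh7 and Neurog2, and this keeps retinal progenitors undifferentiated. Hes6 is the exception in the family, since its product opposes HES1 and promotes neuronal differentiation. In blood vessels the same receptors serve other cells, with Notch3 known from the mural cells that wrap small vessels.

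The pooled libraries held 13017 control and 13880 mutant barcodes with 132436812 and 135678970 unique molecular identifiers (UMIs, which count each captured transcript once), and 11518 and 12576 cells were kept. Cells were grouped into classes by clustering both libraries together, and the classes were called "-like" from marker genes. Clusters that could not be named from markers were called by their leading genes. The targeted gene was lower in the mutant in the pigmented cluster led by Ttr, Trpm1 and Pmel, where control cells held 293 Myrf UMIs and mutant cells 55 (77.0 and 29.6 CPM, counts per 1e+06 UMIs of the class, ratio 0.384, interval 0.282 to 0.513). Every level below is given on that scale. There was no replicate library, so no test between genotypes was possible and the 95% intervals cover counting error only, not the spread between embryos or preparations. A Y-linked UMI was present in 0.026% of control and 41.7% of mutant cells, so the pools also differed in sex, and 69 barcodes were shared by both libraries, 59 of them among the kept cells.

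The members lay on 6 chromosomes in the GRCm38 (mm10) annotation. Notch1 spans chr2:26457903-26516663 on the minus strand, Notch2 spans chr3:98013527-98150361 on the plus strand and Notch3 spans chr17:32120820-32166852 on the minus strand. Hes1 spans chr16:30064384-30067796 and Hes5 chr4:154960923-154962371, both on the plus strand. Hes6 spans chr1:91411483-91414038 and Hey1 chr3:8663359-8667256, both on the minus strand. Over all kept cells, Hes6 (34222 control and 49238 mutant UMIs), Hes5 (32581 and 48140) and Hes1 (22516 and 30489) gave the most counts for these statements. Notch1 had 7197 and 9896 UMIs, Notch2 4104 and 3369, Notch3 2012 and 1945, and Hey1 1883 and 2351, so that statements on the last 3 rest on fewer counts.

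Promoter sequence is shown for Hes5 and Hes6, since these effectors share their highest class but are known to differ in how they depend on Notch. Each run is the 250 bases before a transcription start given by RefSeq on GRCm38.p6, read 5′ to 3′ in the direction of transcription. For Hes5, at chr4:154960673-154960922 on the plus strand, capitals mark GTGGGAA on either strand, the letters of the RBPJ site. An exon of the antisense noncoding gene Gm20421 overlaps this window. RefSeq gives 2 starts for Hes6, one at the outer end of the span above and one inside it. The Hes6 run, at chr1:91413223-91413472 on the minus strand, precedes the inner start, where the principal protein-coding transcript of the annotation begins, and capitals mark CANNTG, the E-box letters that proneural factors bind.
Hes5 promoter: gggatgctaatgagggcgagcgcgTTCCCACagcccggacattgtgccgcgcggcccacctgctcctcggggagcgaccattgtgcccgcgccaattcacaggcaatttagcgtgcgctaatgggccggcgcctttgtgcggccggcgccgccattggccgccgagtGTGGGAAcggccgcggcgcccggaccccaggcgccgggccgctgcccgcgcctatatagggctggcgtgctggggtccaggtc
Hes6 promoter: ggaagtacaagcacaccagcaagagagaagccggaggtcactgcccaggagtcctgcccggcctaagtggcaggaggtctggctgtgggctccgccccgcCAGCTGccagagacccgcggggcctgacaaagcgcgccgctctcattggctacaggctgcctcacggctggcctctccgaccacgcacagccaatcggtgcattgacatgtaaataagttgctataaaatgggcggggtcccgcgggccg
The Hes5 window held 2 matches to GTGGGAA, at 226 to 220 bases before the start, where the minus strand carries it, and at 83 to 77 bases before the start on the plus strand. Of 32851 RefSeq promoter windows of this length, 5.42% held at least 1 match and 0.161% held at least 2. No match was present in the windows of Notch1, Notch2, Notch3 or Hes6. E-box letters stood once in the Hes5 window, once in the printed Hes6 window and 3 times in the window of the outer Hes6 start, and they occur in 66.2% of all windows. CACNAG, the letters of the N-box that HES repressors bind, was in 36.7% of all windows, with 0 matches for Hes5, 1 each for Notch1, Notch2 and the printed Hes6 window and 2 for Notch3. Hes1 and Hey1 had no entry in the promoter table. A match is a stretch of letters and not a measured site.

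The receptors occupied different cell classes. Notch1 led in neurogenic progenitor-like cells, which carry Atoh7 and Neurog2 and are about to leave the cell cycle as neurons. Notch2 led in the pigmented Ttr/Trpm1/Pmel cells and in periocular mesenchyme-like cells, and Notch3 led in pericyte-like cells. Hes1 was high in retinal progenitor-like cells, whereas Hes5 and Hes6 were highest in neurogenic-like cells and Hey1 in a small neural cluster led by Gal, Pou4f2 and Dlx1. The leading class was the same in both libraries for each gene except Hes1.

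**Figure D1:**
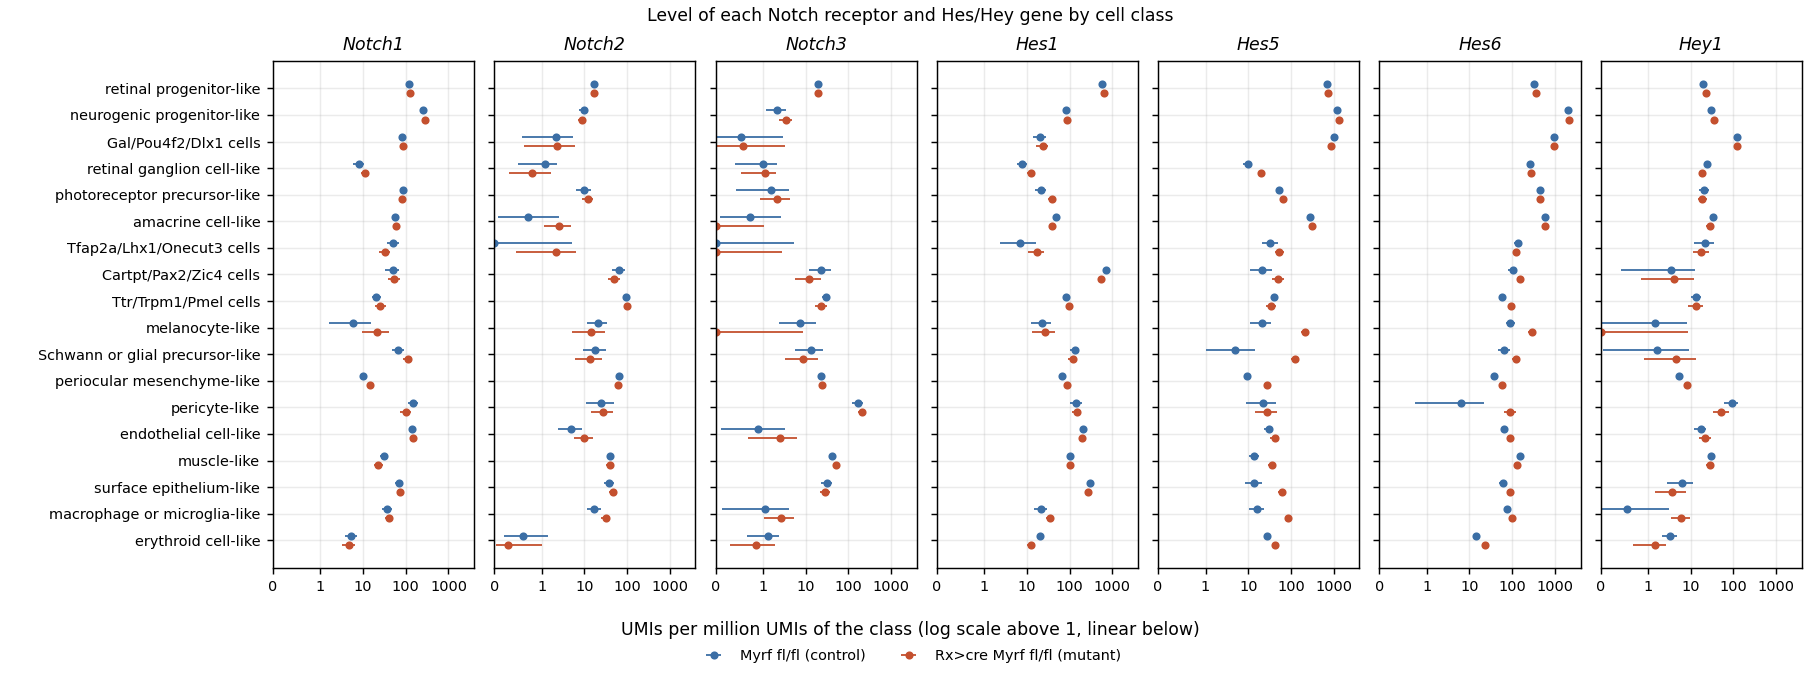
Level of each member by cell class, as CPM, in the control and mutant libraries, on an axis that is logarithmic above 1 and linear below, with 95% intervals for counting error. Notch1, Hes5 and Hes6 peak in neurogenic-like cells, Notch2 in Ttr/Trpm1/Pmel cells, Notch3 in pericyte-like cells and Hey1 in Gal/Pou4f2/Dlx1 cells.

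Notch1, the main receptor of the embryonic retina, stood at 256 CPM in control neurogenic-like cells (1843 UMIs, interval 244 to 268) and at 275 CPM in mutant ones (2948 UMIs, 266 to 286). Retinal progenitor-like cells, the dividing cells marked by Sfrp2 and Fgf15, had 118 CPM (114 to 122) and 125 CPM (121 to 129). Endothelial-like cells, which line vessels, had 140 and 148 CPM. The neurogenic class was above all others in both libraries without overlap of the intervals. Below it the order was less firm. Pericyte-like cells had 149 CPM in control and 99.9 CPM in mutant eyes, on 48 and 44 UMIs, and their intervals overlapped those of their neighbours in the order. Photoreceptor precursor-like cells (85.9 and 82.0 CPM), Gal/Pou4f2/Dlx1 cells (83.3 and 84.6 CPM) and amacrine-like cells (57.0 and 58.8 CPM) kept part of this level, with overlapping intervals between the first pair. In retinal ganglion cell-like cells, the projection neurons, Notch1 fell to 7.86 CPM (5.91 to 10.3) and 11.3 CPM (9.16 to 13.7). Erythroid-like cells, which served as the background class, had 5.27 and 4.72 CPM.

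Notch2 showed a different distribution. The Ttr/Trpm1/Pmel cells had 92.0 CPM in the control (350 UMIs, interval 82.6 to 102) and 97.8 CPM in the mutant (182 UMIs, 84.1 to 113). Periocular mesenchyme-like cells, the connective tissue around the eye, had 65.8 and 61.7 CPM on 2832 and 1945 UMIs. The Cartpt/Pax2/Zic4 cells, a small unnamed cluster that scored highest for ciliary margin markers, had 64.7 and 50.6 CPM on 37 UMIs in each library, which overlapped the mesenchyme-like level. Muscle-like and surface epithelium-like cells came next, at 39.8 and 39.6 CPM and at 37.9 and 48.0 CPM. The neural retina was low throughout. Retinal progenitor-like cells had 16.4 and 17 CPM, neurogenic-like cells 9.59 and 8.97 CPM and ganglion-like cells 1.16 and 0.788 CPM.

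Notch3 marked pericyte-like cells, the mural cells of small vessels, at 165 CPM in the control (53 UMIs in 18 cells, interval 124 to 216) and 204 CPM in the mutant (90 UMIs in 30 cells, 164 to 251). The next class, muscle-like cells, had 41.7 and 51.1 CPM, and its interval did not reach the pericyte-like one in either library. Surface epithelium-like cells (31.8 and 28.5 CPM), Ttr/Trpm1/Pmel cells (29.7 and 23.1 CPM) and mesenchyme-like cells (23.4 and 24.1 CPM) followed, with overlapping intervals between neighbours. Retinal progenitor-like cells stood below them at 19.2 and 19.3 CPM on 497 and 692 UMIs. Endothelial-like cells, which sit beside pericytes in the vessel wall, had only 2 and 4 Notch3 UMIs (0.892 and 2.51 CPM). The pericyte-like cells were few, and the 5 richest of them held 60.4% of the control and 41.1% of the mutant Notch3 UMIs.

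The same vessel classes held other parts of the pathway. Heyl, a further Hey-family effector, had its highest level in pericyte-like cells at 218 and 243 CPM, as did the ligand gene Jag1 (115 and 127 CPM) and the feedback inhibitor Nrarp (184 and 141 CPM). Notch4, the endothelial receptor, was highest in endothelial-like cells at 49.9 and 61.5 CPM. Hey1 came second in pericyte-like cells, at 90.3 CPM on 29 UMIs in the control and 52.2 CPM on 23 UMIs in the mutant. Hes1 was present in both vessel classes, at 208 and 191 CPM in endothelial-like cells and at 143 and 145 CPM in pericyte-like cells.

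Hes1, the repressor that keeps progenitors dividing, stood at 573 CPM in control retinal progenitor-like cells (14825 UMIs, interval 564 to 582) and 632 CPM in mutant ones (22636 UMIs, 623 to 640). Cartpt/Pax2/Zic4 cells had 715 CPM in the control (647 to 787) and 544 CPM in the mutant (492 to 600), so the order of these classes was reversed between the libraries. Surface epithelium-like cells had 296 and 274 CPM. Neurogenic-like cells had 80.2 CPM (73.8 to 87.0) and 86.0 CPM (80.5 to 91.7), and ganglion-like cells 7.72 and 12.4 CPM. A cluster of 10 control and 9 mutant cells led by the mast cell protease genes Cma1, Cpa3 and Tpsb2 had 872 and 366 CPM, of which the 5 richest cells held 92.6% and 86.7%.

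Hes1 also split the periocular mesenchyme-like clusters. The cluster led by Ecm1 and Spp1 had 163 control and 198 mutant CPM, and the one led by Tagln and Crym had 112 and 145 CPM. The cluster led by A2m and Kera, which encodes the corneal proteoglycan keratocan, had 11.3 and 15.6 CPM. Jag1 was also highest in the Ecm1/Spp1 cluster, at 39.3 and 49.3 CPM, as was Hey1 at 16.6 and 22.5 CPM. Notch2 varied little over these clusters, from 57.7 to 76.8 CPM in the control and from 51.6 to 72.0 CPM in the mutant. Clustering had left these members out of its features, but the clusters are those of the same cells, so the values describe them and test nothing.

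Hes5, the other Notch-induced Hes repressor of the neural retina, reached 1233 CPM in control neurogenic-like cells (8872 UMIs, interval 1207 to 1259) and 1332 CPM in mutant ones (14252 UMIs, 1310 to 1354). Gal/Pou4f2/Dlx1 cells were next at 1029 CPM (983 to 1076) and 883 CPM (839 to 928), then retinal progenitor-like cells at 710 CPM (699 to 720) and 745 CPM (736 to 754), then amacrine-like cells at 276 and 312 CPM. No neighbours among these 4 classes overlapped in either library. Photoreceptor precursor-like cells had 53.9 and 65.7 CPM and ganglion-like cells 9.76 and 19.7 CPM. Erythroid-like cells, where the transcript is not known to be made, had 27.2 and 42.8 CPM, which exceeds the ganglion-like level, and no expression is read from the ganglion-like values.

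Hes6, the family member that favours differentiation, was at 2003 CPM in control neurogenic-like cells (14415 UMIs, interval 1970 to 2036) and 2108 CPM in mutant ones (22557 UMIs, 2080 to 2135). It declined through Gal/Pou4f2/Dlx1 cells (941 and 945 CPM), amacrine-like cells (597 and 588 CPM) and photoreceptor precursor-like cells (455 and 442 CPM) to retinal progenitor-like cells (329 and 354 CPM) and ganglion-like cells (256 and 276 CPM). Hes6 stayed above the erythroid-like level of 14.6 and 23.2 CPM in every neuronal class. The ganglion-like clusters differed among themselves. The one led by Cntn2 and Isl1 had 390 CPM (371 to 410) and 402 CPM (385 to 420), and the one led by Sncg and Nrn1 had 87.9 CPM (77.7 to 99.1) and 106 CPM (95.9 to 117). Hey1 followed the same order in these clusters, with 37.6 and 25.4 CPM against 6.58 and 9.49 CPM.

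Hey1, a repressor induced by Notch in vessels and neural tissue, was highest in the Gal/Pou4f2/Dlx1 cells. These 169 cells in each library had 230 control and 213 mutant UMIs, or 124 CPM (108 to 141) and 123 CPM (107 to 141). Pericyte-like cells overlapped them in the control, at 90.3 CPM (60.5 to 130), and did not in the mutant, at 52.2 CPM (33.1 to 78.3). Amacrine-like, neurogenic-like and muscle-like cells formed a group between 27.7 and 34.7 CPM over both libraries whose neighbours overlapped.

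Neurogenic-like cells were then set against retinal progenitor-like cells within each library. Hes6 was higher, and Hes1 and Notch3 lower, by more than 2-fold, and Notch1 was higher by a margin near 2-fold. The ratio was 2.17 (2.04 to 2.30) in the control and 2.21 (2.11 to 2.31) in the mutant for Notch1. Other clusterings took Notch1 below 2-fold, to between 1.76 and 1.90 in the control at 3 settings and to 1.90 and 1.98 in the mutant at 2. The ratio was 6.09 (5.93 to 6.26) and 5.96 (5.83 to 6.09) for Hes6. Hes1 was at 0.140 (0.128 to 0.152) and 0.136 (0.127 to 0.145) of the progenitor level. Notch3 was at 0.108 and 0.179 on 15 and 37 neurogenic-like UMIs. Hes5 was higher by less, with ratios of 1.74 (1.69 to 1.78) and 1.79 (1.75 to 1.82), where Hes1 was lower. Under the study's limit of 2000 UMIs per cell the Hes5 ratio was 0.958 in the control, on the other side of 1, and 3.68 in the mutant, from 11 and 10 neurogenic-like and 37 and 55 progenitor-like cells. Hey1 was at 1.56 and 1.52 and Notch2 at 0.585 and 0.527, and with the 3 other clusterings Hey1 passed 2-fold, at 2.53 to 2.81 and 2.06 to 2.29. Notch2 passed 2-fold, lower, in 4 of 10 alternatives in each library, these clusterings among them, down to 0.439 and 0.435. The progenitor marker Fgf15 stood in neurogenic-like cells at 14.4% and 14.9% of its progenitor-like level, a share of progenitor RNA that would carry 82.4 and 94.3 CPM of Hes1 where 80.2 and 86.0 CPM were found. For Notch3 it would carry 2.76 and 2.88 CPM where 2.08 and 3.46 CPM were found. The part of progenitor RNA in the Hes1 and Notch3 values was not tested. Thus 2 members were more than 2-fold higher and 2 lower of 7 in each library, where 18.5% of 13068 control genes and 18.6% of 13590 mutant genes passed 2-fold in either direction. With the other clusterings 3 members were lower in each library, Notch2 joining Hes1 and Notch3, and Hey1 took the place of Notch1 or, in the mutant with members and markers among the features, joined it.

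**Figure D2:**
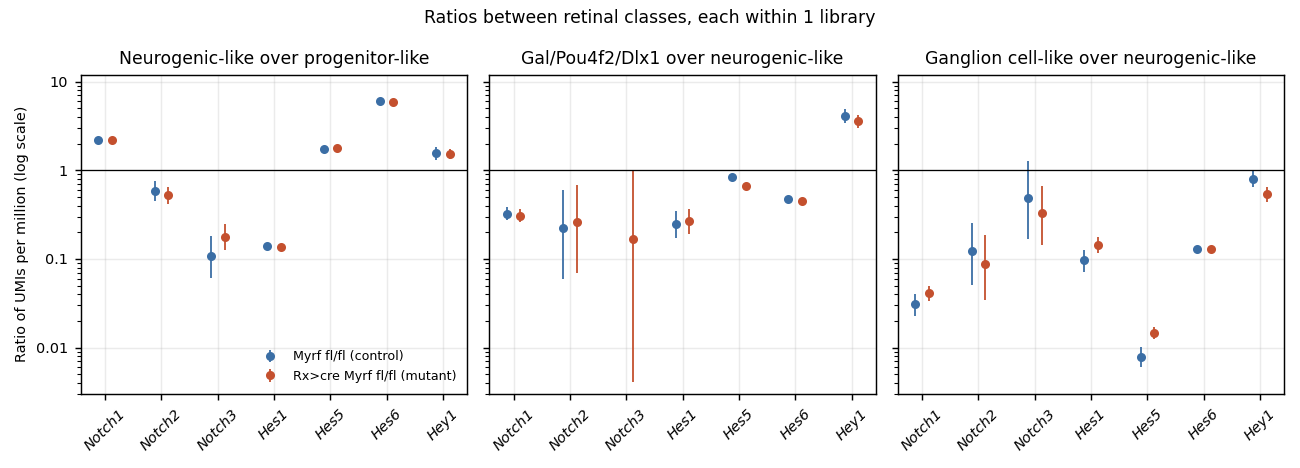
Ratio of each member's level between retinal classes of the same library on a log axis, for the control and the mutant, with 95% intervals for counting error and a line at 1. Hes6, Notch1, Hes5 and Hey1 lie above 1 and Hes1, Notch3 and Notch2 below it in neurogenic-like over progenitor-like cells. Hey1 alone lies above 1 in Gal/Pou4f2/Dlx1 over neurogenic-like cells.

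The remaining Notch pathway genes gave the setting of this step. Of 41 listed genes, 39 control and 40 mutant genes had enough UMIs to be measured, and 9 were more than 2-fold higher in neurogenic-like cells in each library, with 5 and 3 lower and medians of -0.01 and 0.11 on the log2 scale. The Delta-like ligand genes were among those higher, with Dll1 at 7.09 and 7.02 times, Dll3 at 12.8 and 12.1 times and Dll4 at 66.6 and 72.3 times the progenitor-like level. The ligand gene Jag1 was at 2.66 and 2.20 times, and Jag2 was lower, at 0.391 and 0.591 on 5 and 9 neurogenic-like UMIs. Rbpj, the nuclear partner of the receptors, was at 4.03 and 3.79 times, and the glycosyltransferase gene Mfng, which tunes receptor response to ligand, at 9.31 and 8.19 times. Hes2, a little-studied Hes gene, had 140 neurogenic-like against 2 progenitor-like UMIs in the control (ratio 252, interval 68.4 to 2098) and 263 against 0 in the mutant, at least 294-fold higher with the progenitor-like count set to 3.

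The Gal/Pou4f2/Dlx1 cells were nearer to the neurogenic level for Hes5 than for the other members tested. Against neurogenic-like cells, Hes5 was at 0.835 (0.794 to 0.877) in the control and 0.663 (0.628 to 0.699) in the mutant, while Hey1 was at 4.10 (3.39 to 4.96) and 3.56 (2.99 to 4.22). The others were lower, with Hes6 at 0.470 and 0.448, Notch1 at 0.325 and 0.307, and Hes1 at 0.248 and 0.270. In the control 1 member was more than 2-fold higher and 4 were lower of 6 tested, and in the mutant 1 was higher and 5 lower of 7, beside 21.5% and 22.2% of all genes. These 338 cells merged with neurogenic-like cells at the coarser clustering resolution of 0.5 (338 of 338) and nearly so at 2.0 and with members and markers among the features (333 of 338 each), so the separate group depends on the clustering chosen. Within the 2000 UMI limit, which kept 2 of these cells in each library, Hes5 was at 9.003 in the control and 0.981 in the mutant and Hes6 at 0.256 and 0.936.

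In ganglion-like cells 0 of 7 members were more than 2-fold higher than in neurogenic-like cells and 6 were lower in each library, where 38.4% of control and 38.1% of mutant genes passed 2-fold. With doublets kept 5 were lower in each. Notch3, at 0.489 in the control, stayed past 2-fold in 3 of 7 alternatives, which ran from 0.105 to 0.768. Hes5 was at 0.00791 and 0.0148 of the neurogenic level, Notch1 at 0.0307 and 0.0409, Hes1 at 0.0963 and 0.144 and Hes6 at 0.128 and 0.131. Hey1 was retained best, at 0.792 in the control and 0.536 in the mutant, but it was more than 2-fold lower in 3 of 10 control and 5 of 10 mutant alternatives, down to 0.405 and 0.355 with members and markers among the clustering features. Amacrine-like cells kept more Hes5 than ganglion-like and photoreceptor precursor-like cells. After thinning, 5.6% of control and 5.9% of mutant amacrine-like cells had 5 or more Hes5 UMIs while 88.6% and 85.5% had 0. Fgf15 in them stood at 9.19% and 9.28% of its progenitor-like level, beside 0.724% and 2.04% in ganglion-like cells. The amacrine-like share of progenitor RNA would carry 65.2 and 69.1 CPM of Hes5 where 276 and 312 CPM were found, and its part was not tested.

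Levels in a class can come from many cells or few, so each cell was thinned to 2000 UMIs and the members counted per cell. Shallower cells were left out, which kept 2301 control and 3381 mutant progenitor-like cells and 637 and 968 neurogenic-like cells. A Hes1 UMI was then found in 62.4% and 65.1% of progenitor-like cells (92.3% and 93.2% unthinned) and in 10.0% and 12.4% of neurogenic-like cells (26.5% and 30.3% unthinned). For Hes6 the shares were 33.9% and 36.4% of progenitor-like cells and 91.8% and 91.7% of neurogenic-like cells (unthinned 71.0% and 72.0%, and 99.7% and 99.5%). Notch1 was seen in 20.6% and 20.9% of progenitor-like and in 35.9% and 38.7% of neurogenic-like cells. The erythroid-like background was 2.74% and 2.42% for Hes1, 1.47% and 2.42% for Hes6 and 0.211% and 1.21% for Notch1. Median depths before thinning were 10216 and 9538 UMIs in progenitor-like, 10434 and 10097 in neurogenic-like and 17013 and 16883 in erythroid-like cells.

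Hes5 departed from this picture, because its higher class level in neurogenic-like cells did not come with more cells holding it. After thinning, 55.8% of control and 57.7% of mutant progenitor-like cells and 49.8% and 49.7% of neurogenic-like cells had a Hes5 UMI (unthinned 84.1% and 83.6%, and 68.2% and 67.8%), with 2.74% and 4.12% in erythroid-like cells. Cells with 5 or more Hes5 UMIs made up 9.73% and 9.67% of progenitor-like but 25% and 24.6% of neurogenic-like cells. The variance was 5.77 and 6.65 times the mean in neurogenic-like cells against 3.05 and 3.09 times in progenitor-like cells. Gal/Pou4f2/Dlx1 cells showed the same split, with 53.9% and 59.9% at 0 and 22.8% and 19.2% at 5 or more. For Hes6 only 8.16% and 8.26% of neurogenic-like cells were at 0, and 34.5% and 38.8% had 5 or more.

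**Figure D3:**
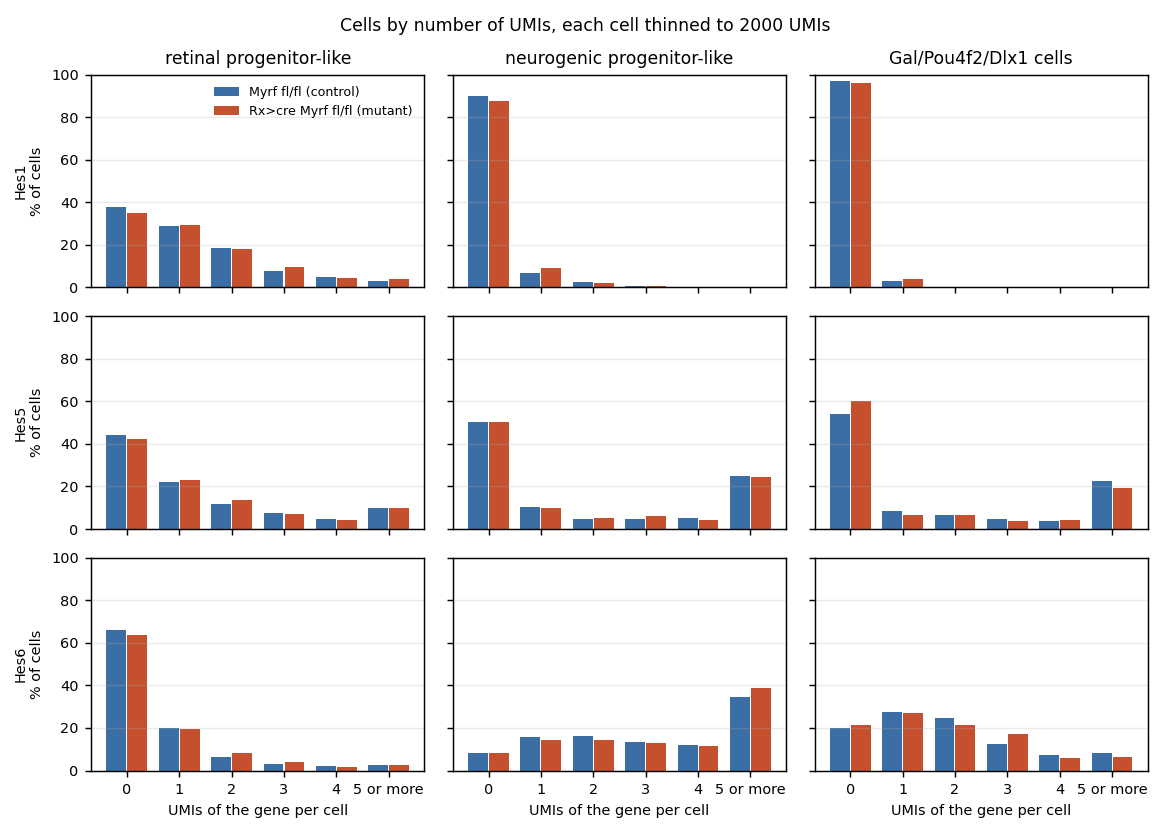
Distribution of UMIs per cell after thinning each cell to 2000 UMIs, as percent of cells of the class, in each library, for Hes1, Hes5 and Hes6 in 3 classes. Hes5 in neurogenic-like cells has about equal shares at 0 and above 0 and 25% and 24.6% at 5 or more, while Hes1 is mostly at 0 there.

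The neurogenic-like cells were therefore divided, after this distribution had been seen, into those with 0 Hes5 UMIs after thinning (320 control and 487 mutant cells) and those with 5 or more (159 and 238). The first are called Hes5-low, because 37.8% and 36.3% of them held a Hes5 UMI before thinning. The 2 sets differed in proneural and ligand genes. The ratio of the Hes5-rich to the Hes5-low level was 0.155 and 0.242 for Neurog2, 0.133 and 0.144 for Insm1, 0.148 and 0.157 for Neurod1 and 0.153 and 0.136 for Olig2, all factors of cells committing to neuronal fates. Atoh7, the factor required for ganglion cells, went the other way at 1.32 (1.26 to 1.38) and 1.58 (1.53 to 1.64), as did the neurogenic marker Gadd45a at 1.29 (1.16 to 1.44) and 1.49 (1.35 to 1.63). Btg2, another marker of the class, was at 0.953 (0.831 to 1.09) and 0.986 (0.883 to 1.10). The ligand gene Dll4 was at 0.144 and 0.198, while Dll1 was at 0.571 and 0.512 and Dll3 at 0.579 and 0.624.

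Other Notch-responsive members went with Hes5. Hes1 was 6.46 (3.81 to 11.5) and 3.74 (2.58 to 5.48) times higher in the Hes5-rich cells, and Hey1 12.5 and 16 times on 5 against 31 control UMIs and 6 against 47 mutant UMIs. Notch1 was at 1.41 (1.07 to 1.84) and 1.72 (1.41 to 2.10), and Nrarp at 2.63 and 2.41. Hes6 was lower, at 0.493 (0.440 to 0.552) and 0.575 (0.527 to 0.626). Ptf1a, which directs amacrine and horizontal fates, had 1 UMI in the Hes5-low and 78 in the Hes5-rich control cells, a ratio of 157 with an interval of 27.4 to 6279, and 10 and 173 in the mutant cells, a ratio of 35.4 (18.8 to 75.1). The glycosyltransferase gene Lfng had 1 and 22 UMIs in the control (ratio 44.3, interval 7.16 to 1827) and 2 and 41 in the mutant (ratio 41.9, interval 10.9 to 358). Over all genes with enough counts, 7.64% in the control and 6.55% in the mutant passed 2-fold in either direction.

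**Figure D4:**
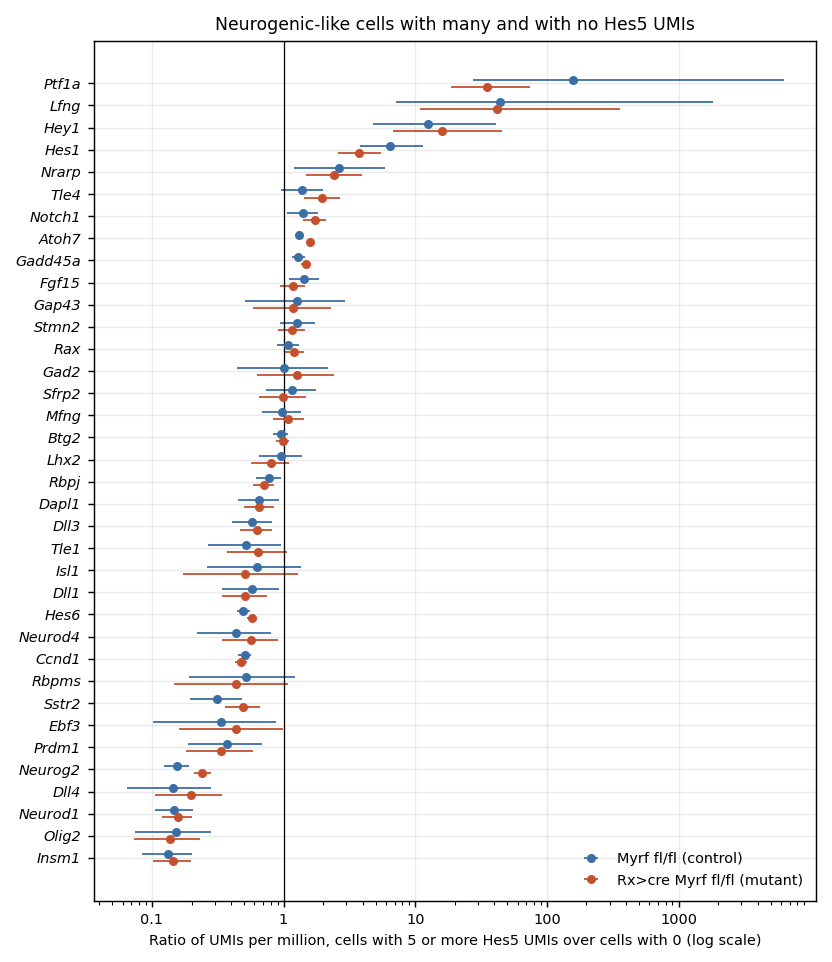
Ratio of gene levels in neurogenic-like cells with 5 or more Hes5 UMIs over those with 0, both after thinning to 2000 UMIs, on a log axis with 95% intervals for counting error, for the control and mutant. Ptf1a, Lfng, Hey1 and Hes1 lie above 1 and Dll4, Insm1, Neurog2 and Neurod1 below it in both libraries.

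The division followed no single cluster. Hes5-rich cells made up 28.3% and 29.2% of the first of the 3 neurogenic-like clusters, 22.6% and 26.6% of the second and 23.5% and 20% of the third, and Hes5-low cells 50.2% and 50.6%, 41.4% and 42.0%, and 54.4% and 53.7%. The selection was on Hes5 itself, so these ratios describe the cells that it picked, and the thinning left every cell with the same depth.

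The same thinned cells were also described by co-detection, the number of cells with at least 1 UMI of both genes. Hes1 and Hes5 were found together in 49 control and 84 mutant neurogenic-like cells, where the product of their shares gave 31.8 and 59.6 (1.54 and 1.41 times). Hes5 and Hey1 were together in 30 and 54 cells where 17.4 and 29.8 were expected (1.72 and 1.81 times). Hes5 and Dll4 were together in 36 and 38 cells where 62.2 and 77.5 were expected, which is 0.579 and 0.490 times. In progenitor-like cells the Hes1 and Hes5 pair was nearer to the product, at 1.04 and 1.05 times. There Hes6 went with the ligand gene instead, since Hes6 and Dll1 were together in 63 and 73 cells where 30.2 and 37.9 were expected (2.09 and 1.93 times), and Hes1 with Hes6 was at 0.905 and 0.918 times.

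Within the Gal/Pou4f2/Dlx1 cells, Hes5 also kept company with Hey1, in 24 control cells where 15.2 were expected and 23 mutant cells where 16 were expected. Hes5 with Dlx1, an interneuron factor, was at 1.24 and 1.35 times the product and Hes5 with Pou4f2, a ganglion cell factor, at 0.845 and 0.756 times. Hey1 with Pou4f2 was at 1.23 and 0.985 times, so the libraries lay on different sides of 1. Each of these values is a description over cells of 1 library, and sparse counts limit them.

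The phase of the cell cycle was also assigned to the progenitor-like cells from S and G2M gene lists after thinning. Hes6 stood at 430 CPM (402 to 459) in control and 470 CPM (445 to 496) in mutant G1 cells, against 316 and 332 CPM in S and 322 and 349 CPM in G2M. Dll1 was also highest in G1, with 36.9 and 28.0 CPM there and 13.3 to 16.7 CPM in the other phases. Hes1 was lowest in the G2M cells of both libraries at 549 and 622 CPM, against 601 and 678 CPM in G1. Hes5 ranged from 690 to 769 CPM over the phases and libraries. By cluster, Hes1 was 402 and 417 CPM in the cluster led by Ccnb2 and 526 to 635 CPM in the control and 612 to 722 CPM in the mutant elsewhere. Phase calls are scores and no cycling was read from them alone.

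Across the 11 named classes with at least 50 cells per library, genes were ranked by Pearson r with each member on log2(CPM + 5), taking the lower of the 2 libraries. Of 12697 genes compared, the nearest to Hes5 was Rsph1 (0.949), with Pip5k1b, Sox2 and Sel1l3 next. Psip1 (0.959) led for Hes6, followed by Zc3h12c, Zbtb18, Fmn2 and Cxxc5. For Hes1 the list was Id1 (0.929), AW011738, Ajuba, Orc1 and Id3, where Id1 and Id3 encode inhibitors of basic helix-loop-helix factors. Notch1 was nearest to Hmgn5 (0.887), Notch2 to Copz2 (0.912), Notch3 to Lrig1 (0.935) and Hey1 to Fxyd6 (0.866). These correlations are over 11 points that share libraries and depth, and ranking by Spearman rho kept 0 to 3 of each gene's 5.

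The genotypes were close for the members in the retinal classes where they are highest. In progenitor-like cells, 0 of 7 members passed 1.5-fold between mutant and control, beside 5.45% of 13860 genes, and the ratios ran from 1.01 for Notch3 to 1.18 for Hey1. Hes1 was at 1.10 (1.08 to 1.13), Hes5 at 1.05 (1.03 to 1.07), Hes6 at 1.08 (1.05 to 1.11) and Notch1 at 1.06 (1.01 to 1.11). The members' median was 0.08 on the log2 scale and that of all genes -0.02. Within the 2000 UMI limit, which kept 37 and 55 of these cells, Hes5 was at 0.595 and Hes6 at 1.88. Restricted to cells holding Xist but no Y-linked UMI, Hes1 was at 1.04.

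In neurogenic-like cells 1 of 7 members passed 1.5-fold, beside 6.4% of genes. That member was Notch3, at 1.66 with an interval of 0.889 to 3.25 on 15 and 37 UMIs, and it was 0.893 in the cells holding Xist but no Y-linked UMI. Its levels of 2.08 and 3.46 CPM lie near the progenitor share given above. Hes5 was at 1.08 (1.05 to 1.11), and at 2.29 among the 11 control and 10 mutant cells within the 2000 UMI limit, on 20 and 38 UMIs. Notch1 was at 1.08 (1.02 to 1.14), Hes1 at 1.07 (0.965 to 1.19), Hes6 at 1.05 (1.03 to 1.07) and Hey1 at 1.15 (0.970 to 1.37). In Gal/Pou4f2/Dlx1 cells 0 of 5 passed, beside 11.5%, and Hes5 was at 0.858 (0.802 to 0.919). It passed 1.5-fold lower there in 2 of 8 alternatives, at 0.665 in cells holding Xist but no Y-linked UMI and at 0.249 within the 2000 UMI limit. Amacrine-like cells also had 0 of 5, beside 8.88%, but Hes5 ranged from 0.563 to 1.58, Hey1 from 0.610 to 1.77 and Hes1 from 0.525 to 1.12 over the alternatives, each past 1.5-fold in 2 of 10.

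**Figure D5:**
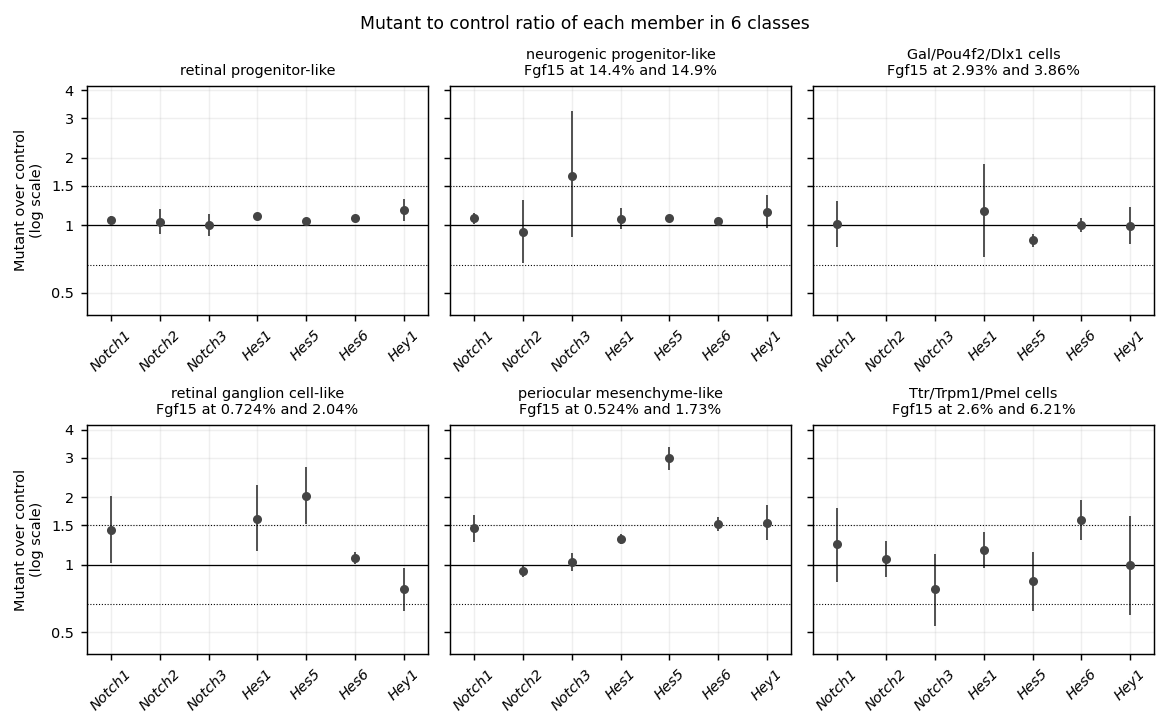
Mutant over control ratio of each member in 6 cell classes, on a log axis with 95% intervals for counting error and dotted lines at 1.5-fold in either direction, and titles giving the Fgf15 level of each library as percent of that in progenitor-like cells. Ratios in progenitor-like and neurogenic-like cells lie near 1 except Notch3 in neurogenic-like cells at 1.66, and Hes5 in mesenchyme-like cells lies at 2.98.

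Larger ratios stood outside the progenitor-like and neurogenic-like cells. In ganglion-like cells 2 of 5 members passed, Hes5 at 2.02 (1.52 to 2.72) and Hes1 at 1.61 (1.15 to 2.27), beside 7.33% of genes. Neither exceeded the erythroid-like background in either library (27.2 and 42.8 CPM for Hes5, 20.5 and 12.6 CPM for Hes1), so these ratios are not read as a difference in expression, and they were 1.30 and 1.20 in cells holding Xist but no Y-linked UMI. In photoreceptor precursor-like cells Hes1 alone of 6 passed, at 1.79 (1.30 to 2.51) and beside 9.67%. Its levels were 21.1 CPM in the control, near the erythroid-like 20.5 CPM, and 37.9 CPM in the mutant. The Fgf15 share of progenitor RNA in these cells would carry 15.6 and 20.1 CPM of Hes1. The ratio passed in 9 of 10 alternatives, which ran from 0.886 with called doublets kept to 4.31 after thinning. Mesenchyme-like cells had 3 of 7, with Hes5 at 2.98 (2.64 to 3.36), Hes6 at 1.52 (1.42 to 1.63) and Hey1 at 1.54 (1.29 to 1.85), beside 8.58%. Hes5 passed in all 10 alternatives, at 1.92 to 3.51, Hes6 in 3 and Hey1 in 6. The Hes5 levels, 9.22 and 27.5 CPM, were below the erythroid-like ones. In the Ttr/Trpm1/Pmel cells 1 of 7 passed, Hes6 at 1.59 (1.29 to 1.94), beside 13.7%. That call held in 6 of 11 alternatives, which ran from 0.938 at a mitochondrial limit of 5% to 2.21. Pericyte-like cells had Hes6 at 14.6 (3.78 to 125) on 2 and 40 UMIs, of which 5 cells held 85.0% in the mutant, and Hey1 at 0.578 (0.320 to 1.03), so 2 of 6 passed beside 24.1%. Hey1 there was 1.06 in cells holding Xist but no Y-linked UMI. Endothelial-like cells had 1 of 6, Notch2 at 2.05 on 11 and 16 UMIs, beside 13% of genes.

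A progenitor transcript was higher in some of these classes and not in others. The level of Fgf15, a progenitor marker, was 0.524% of the progenitor-like level in control and 1.73% in mutant mesenchyme-like cells. That share of progenitor RNA would carry 3.72 and 12.9 CPM of Hes5 where 9.22 and 27.5 CPM were found. In ganglion-like cells the share was 0.724% and 2.04% and in Ttr/Trpm1/Pmel cells 2.60% and 6.21%, where Hes5 was 40.5 and 34.4 CPM. No direction is read from that Hes5 pair, since its ratio of 0.850 ranged from 0.534 to 3.19 over 10 alternatives and passed 1.5-fold in 6 of them. Before thinning, 11.8% of control but 18% of mutant cells held a Hes5 UMI, at median depths of 6739.5 and 3552 UMIs. After thinning, 96.0% and 95.9% of the 248 and 122 cells left had 0. The Fgf15 share was lower in the mutant in muscle-like cells, at 4.19% and 3.25%, and in erythroid-like cells, at 3.23% and 1.27%. Hes5 was higher there, at 13.7 and 36.3 CPM and at 27.2 and 42.8 CPM. Several small classes had more Hes5 in the mutant, from 3 to 86 UMIs in Schwann or glial precursor-like cells, from 14 to 93 in melanocyte-like cells and from 20 to 117 in surface epithelium-like cells, and the 5 richest cells held between 78.6% and 100% of the mutant UMIs in these 3 classes. The part of progenitor or neurogenic RNA in these differences was not tested.

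Few of the other pathway genes passed 1.5-fold between the genotypes in progenitor-like and neurogenic-like cells. Of 38 measured in progenitor-like cells, 2 passed (5.26%, beside 5.45% of all genes): Neurl1b, which aids ligand uptake, was higher at 1.79 (23 and 57 UMIs) and Aph1b, a subunit of the receptor-cutting protease, lower at 0.434 (231 and 139 UMIs). Of 37 in neurogenic-like cells, 2 passed (5.41%, beside 6.4%), with Mib2 at 1.60 and Jag1 at 0.648. Mesenchyme-like cells had 8 of 39 higher and 0 lower (20.5%, beside 8.58%), among them Dll1 at 3.81 on 24 and 67 UMIs, Mfng at 3.20 and Dll3 at 2.35, in the same cells whose Fgf15 share was higher. In Gal/Pou4f2/Dlx1 cells 2 of 29 were higher and 3 lower (17.2%, beside 11.5%), with Dll3 at 1.57, Lfng at 0.485 and Poglut1 at 0.570.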

How the data were processed

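Each library was deposited as a matrix of raw UMI counts, not normalized, which the authors made with Cell Ranger on GRCm38 (mm10). The submitters' processing notes give Cell Ranger 7.1.0 and Seurat 4.1.1, and the matrix headers software 3.1.0. All deposited barcodes were used, so cells were filtered again: at least 200 genes, at most 15% mitochondrial UMIs, and no doublet call by Scrublet (run on each library in scanpy 1.11.5, expected rate 0.1), which took out 424 control and 442 mutant barcodes (3.55% and 3.40% of those tested). The study's upper limit of 2000 UMIs per cell was tried only as an alternative.

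Clustering of the joined libraries used Leiden resolution 1.0 on 15 neighbours in 30 principal components, from 1887 of 2000 highly variable genes. The members, the pathway list and the class markers were left out of the features. Clusters were named from marker lists, and clusters whose leading genes went against their best name, or that were tied, stayed unnamed. Clusters whose median UMI count was more than 3 times below that of their library were kept apart and are otherwise not described. A shallow progenitor-like cluster held 9.47% of control and 9.64% of mutant kept cells, and a ganglion-like one 2.17% and 2.39%. Unnamed clusters led by Gm26870 held 5.89% and 5.34%, and 4.57% and 4.44%. In the shallow progenitor-like cells Hes6 (408 and 489 CPM) was above Hes5 (335 and 414 CPM) and Hes1 (272 and 287 CPM). Pericyte-like cells came from clustering 2 mesenchyme-like clusters again. That step, the Scrublet rate, the naming limits, the Fgf15 measure and the Hes5 division were set with the data in view. Members and lists were chosen with earlier results of these data known.

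UMIs were summed per class and library (numpy 2.4.6, scipy 1.17.1). Sums carry exact Poisson, ratios exact conditional binomial and shares Clopper-Pearson 95% intervals, for counting error only. A ratio needed 20 UMIs in sum, and 3 counts stood for 0. Genes named were all members, pathway genes with at least 50 UMIs and a ratio past 1.5-fold, the class where each pathway gene is highest, and the 5 genes most like each member. Genes outside that rule in the Hes5 division are class markers or pathway genes and were chosen after their values were seen. The scripts were tested on simulated data. Columns of samples not used numbered 0. Other time points were not analysed here, and some genes of these lists are not reported here.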

Additional observations from a re-analysis of the deposited data

Results flagged for a closer look

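A Y-linked UMI was present in 41.7% of mutant cells and in 0.026% of control cells, and an Xist UMI in 27.4% and 71.7%. This was a signal outside the measurements of the Notch genes, and it separates the libraries along with the genotype. Sex and genotype cannot be told apart in whole libraries. Within cells that had Xist but no Y-linked UMI (8253 control and 3027 mutant cells), the mutant to control ratio was 1.04 for Hes1 in progenitor-like cells, 1.03 for Hes5 and 1.09 for Hes6 in neurogenic-like cells. In other classes these cells gave different calls: of 58 mutant to control ratios, 5 were no longer past 1.5-fold and 9 passed it anew, among them Hes5 in Gal/Pou4f2/Dlx1 cells at 0.665, Hes1 in amacrine-like cells at 0.525 and Hey1 in ganglion-like cells at 0.560. In Ttr/Trpm1/Pmel cells Notch1 was at 1.76, Hes6 at 2.21 and Hes5 at 0.605.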

How the results depend on the processing

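No paired analysis was possible because there was 1 library per genotype. Over 102 ratios, 930 alternative values were computed. Of these, 4 crossed to the other side of 1 from a ratio past the fold as reported and were counted apart. Among the rest, 705 stayed inside the counting interval of the reported ratio and 188 left it on the same side of 1. Another 33 left it for the other side, all from ratios not past the fold as reported, among them Hes5 neurogenic to progenitor in the control. Counted apart were Notch3 in neurogenic-like cells at 0.893 and Hey1 in pericyte-like cells at 1.06 with cells holding Xist but no Y-linked UMI. The others were Hes1 in photoreceptor precursor-like cells at 0.886 with doublets kept, and Hes6 in Ttr/Trpm1/Pmel cells at 0.938 with a mitochondrial limit of 5%. Of these 4, only the Notch3 value stayed inside the counting interval of its reported ratio. The causes were not tested. Of 42 ratios past the fold, 28 were past it in every alternative that gave a value. Among all alternative values, 37 lost a call past the fold and 65 gained one. Without cells over 2000 UMIs, mutant to control was 1.20 for Hes1 in progenitor-like cells and 2.29 for Hes5 and 1.17 for Hes6 in neurogenic-like cells, while neurogenic to progenitor in the control was 0.102 for Hes1, 0.958 for Hes5 and 6.54 for Hes6, on 11 control and 10 mutant neurogenic-like cells, with 1 Hes1 UMI in each. At Leiden resolution 0.5, mutant to control was 1.14 for Notch1 and 1.10 for Hes6, and neurogenic to progenitor was 1.76 for Notch1, 0.106 for Hes1, 1.59 for Hes5 and 4.92 for Hes6. At resolution 2.0 it was 1.85 for Notch1, 0.121 for Hes1 and 5.41 for Hes6, with Hes6 mutant to control at 1.10. With members and markers among the features these were 1.90, 0.101 and 5.90, and 1.12 for Hes6 mutant to control. Thinned to 2000 UMIs, neurogenic to progenitor was 2.03 for Notch1, 0.121 for Hes1 and 5.93 for Hes6, and mutant to control 1.15 for Notch1 and 1.09 for Hes6. Hes1 neurogenic to progenitor was 0.123 without cells over 20000 UMIs, as a mean of per-cell CPM, and without the 5 richest cells. In cells with Xist but no Y-linked UMI, mutant to control was 1.04 for Hes1, 1.03 for Hes5 and 1.09 for Hes6. With a pseudocount of 1 CPM, 2 to 4 of the 5 genes most like each member were kept. Depth limits Notch2 and Notch3 in ganglion-like and amacrine-like cells, with 0 to 10 UMIs per library.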
